A study of Rattus norvegicus with 71 samples.

Results

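Of 71 coronal forebrain slices from rat pups at postnatal day 2 (PND2), 5 stood out by the RNA of the pineal gland. They were found among the 43 slices titled MAR_C3 by the level of Tph1, the gene of the hydroxylase that starts serotonin synthesis in the pineal gland and in the gut (neurons of the raphe nuclei use Tph2), set at more than 10 CPM, a count per 1000000 counts of the slice. The other 38 slices of those 43 were used as the comparison. Tph1 itself chose the groups and is not reported among the results. The lowest of the 5 slices had 30.3 CPM of Tph1, and the highest of the other 38 had 1.67 CPM. Among the 28 slices with other titles, Tph1 reached 0.709 CPM at most, and none was chosen.

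The series asks whether maternal autoantibodies of the kind found in maternal autoantibody-related autism alter the gene expression of the offspring's brain. All animals were wild-type Sprague-Dawley rats, and each slice came from 1 pup whose dam had been immunized before breeding. Dams of the exposed pups received peptides of the named antigens with Freund's adjuvant, so that autoantibodies were present in gestation, and control dams received the adjuvant with saline. The adjuvant was therefore shared by all groups. The 43 slices held 12 controls from 4 litters, 8 slices exposed to CRMP1+CRMP2 from 4 litters, 8 exposed to STIP1+NSE from 4 litters, 6 exposed to CRMP1+GDA from 3 litters and 9 exposed to LDHA/B+CRMP1+STIP1 from 5 litters, with males and females in each group. The 28 slices with other titles were controls and slices exposed to LDHA/B+CRMP1+STIP1. The study describes a batch of control and LDHA/B+CRMP1+STIP1 animals that was processed and sequenced separately. Each slice was cut at matrix positions that take in the hippocampus with the cortex and the subcortical tissue beside it. Totals ran from 24880182 to 36234952 counts over the 43 slices and from 26444429 to 36086969 over the 5.

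The pineal gland is a small neuroendocrine gland on the dorsal midline, above the posterior thalamus and beside the habenula, and it releases melatonin at night. Its cells share an ancestry with retinal photoreceptors: homeobox factors such as Otx2 and Crx set up both, and pinealocytes of mammals keep many genes of the light response although they no longer sense light. In rodents the gland forms before birth, while the adult nightly rhythm of melatonin synthesis, driven by sympathetic nerves, comes later.

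The 5 slices came from 3 of the 4 exposure patterns and from 5 different litters. In order of Tph1 they were CRMP1+CRMP2 replicate 2 (female), STIP1+NSE replicate 5 (male), CRMP1+CRMP2 replicate 6 (female), STIP1+NSE replicate 3 (male) and CRMP1+GDA replicate 5 (male), and values for the 5 are given in that order throughout. Each had 1 littermate of the other sex among the 43 slices, and no littermate passed 0.648 CPM of Tph1. CRMP1+CRMP2 replicate 2 stood apart from the other 4 in its tissue. It had 15.1 CPM of the thalamic factor Tcf7l2 against 340 to 535 CPM in the other 4, and 0.333 CPM of Gbx2 against 10.1 to 25.6 CPM.

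Sequences upstream of 5 of the pineal genes are shown first, because they carry the hexamer TAATCC, a core to which the photoreceptor factors Crx and Otx2 bind, and because their genes had high values in all 5 slices. Each run is the 250 bases before the gene's start in RefSeq on build GRCr8, read 5′ to 3′ on the gene's strand, with each TAATCC or TAATCT, or its reverse complement GGATTA or AGATTA, in capitals. The Aanat run is chr10:102326073-102326322 on the plus strand, the Crx run chr1:85681853-85682102 on the minus strand, the Rbp3 run chr16:9273537-9273786 on the plus strand, the Prph2 run chr9:21579075-21579324 on the minus strand and the Aipl1 run chr10:57163456-57163705 on the minus strand.
Aanat: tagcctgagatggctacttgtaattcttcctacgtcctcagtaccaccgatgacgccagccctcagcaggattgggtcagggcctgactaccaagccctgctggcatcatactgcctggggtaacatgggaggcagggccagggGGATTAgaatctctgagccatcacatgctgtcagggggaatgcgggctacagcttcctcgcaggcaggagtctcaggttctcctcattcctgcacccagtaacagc
Crx: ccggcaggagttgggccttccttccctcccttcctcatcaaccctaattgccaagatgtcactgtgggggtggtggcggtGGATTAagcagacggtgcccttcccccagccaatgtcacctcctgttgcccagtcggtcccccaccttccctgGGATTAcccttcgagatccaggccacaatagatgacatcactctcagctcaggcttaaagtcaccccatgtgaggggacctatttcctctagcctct
Rbp3: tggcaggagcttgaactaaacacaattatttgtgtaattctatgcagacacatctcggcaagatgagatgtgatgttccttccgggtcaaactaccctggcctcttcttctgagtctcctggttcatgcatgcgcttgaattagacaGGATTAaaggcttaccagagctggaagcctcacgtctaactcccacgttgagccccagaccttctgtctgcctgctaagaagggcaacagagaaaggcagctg
Prph2: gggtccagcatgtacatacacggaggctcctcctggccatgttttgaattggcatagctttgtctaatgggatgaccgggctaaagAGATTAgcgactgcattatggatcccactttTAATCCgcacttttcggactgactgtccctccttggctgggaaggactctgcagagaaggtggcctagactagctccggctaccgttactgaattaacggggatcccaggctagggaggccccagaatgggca
Aipl1: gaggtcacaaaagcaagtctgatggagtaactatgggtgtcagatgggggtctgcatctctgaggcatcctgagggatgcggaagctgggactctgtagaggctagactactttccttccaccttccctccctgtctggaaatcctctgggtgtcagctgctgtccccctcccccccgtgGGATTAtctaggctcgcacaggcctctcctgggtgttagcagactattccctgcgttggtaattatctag

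Crx held 2 matches, 170 and 97 bases before its start, in the promoter of the gene that codes for the factor itself. Aanat held 1 match 106 bases before its start, Rbp3 1 at 103 bases and Aipl1 1 at 70 bases. Of the 25 genes set out below, 19 had a RefSeq promoter, and 8 of these 19 (42.1%) held TAATCC or GGATTA, against 6.33% of 27457 promoters of the same length. The related hexamer TAATCT or AGATTA was found in 3 of the 19 (15.8%) and in 7.51% of all promoters, and the cyclic AMP response element TGACGTCA in 1 of the 19 (5.26%), that of Isl2, and in 1.7% of all. A match of these letters is a description of the window and does not show that a factor binds there.

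Across 12737 genes with over 1 CPM in at least 2 of the 43 slices, 25 genes (0.196%) were higher in every one of the 5 pineal slices than in every one of the other 38, and none was lower. Among them were genes of pineal and photoreceptor identity: the homeobox factor Crx, the retinoid-binding protein Rbp3, the cone transducin subunit Gnat2 and the melatonin enzyme Aanat. The largest ratio of means was that of the homeobox gene Tlx2, which was in none of the lists, followed by Crx and Rbp3. The groups were cut on RNA measured in the same libraries, so these values describe the slices and were not tested. The littermates of the pineal slices are among the 38. The 28 slices with other titles had no part in the choice of the 25, and for 21 of the 25 every pineal slice exceeded every one of the 28. Thalamic marker genes summed to 162 to 385 CPM in the 28, against 241 to 1471 CPM in the 38, so the 28 differed in tissue as well. With CRMP1+CRMP2 replicate 2 left out, the count stayed at 25. Under this rule leaving out a slice can add genes but not remove any, so all 25 had to remain. In bulk slices, more pineal cells and more RNA per pineal cell cannot be told apart.

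Of 92 genes in 5 lists of pineal and photoreceptor genes, 89 were in the table, 65 passed the filter on low values, and 18 of these were among the 25. For 51 of the 65 the other slices alone were enough to pass, and 5 of these 51 were among the 25. Among 12692 genes with over 1 CPM in at least 2 of the other slices, 7 (0.0552%) separated. The other 7 of the 25 were in none of the 15 lists used here.

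**Figure D1:**
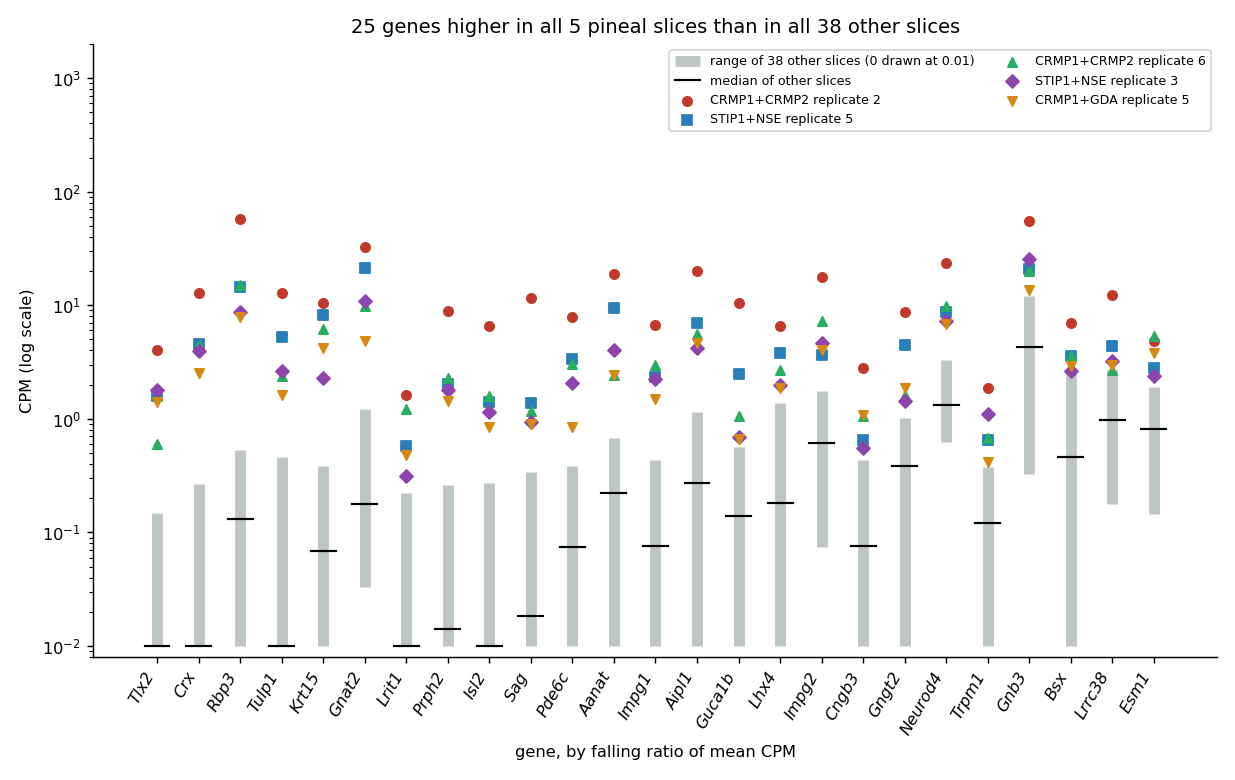
CPM on a log axis of the 25 genes that were higher in all 5 pineal slices than in all other slices, with 1 symbol for each pineal slice, a grey bar for the range of the 38 other slices and a black line for their median (values of 0 are drawn at 0.01). CRMP1+CRMP2 replicate 2 has the highest value for 24 of the 25 genes, and every symbol lies above its grey bar.

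Aanat, the N-acetyltransferase whose activity paces melatonin synthesis (rn7 chromosome 10, 101827489 to 101831801, plus strand), had 18.95, 9.42, 2.42, 4.02 and 2.42 CPM in the 5 slices. The other 38 slices ran from 0 to 0.683 CPM with a median of 0.221 CPM. The groups did not overlap, and the mean of 7.45 CPM ± 7.04 (SD, n = 5) was 30.6 times that of the other slices. The counts behind it numbered 64 to 684 per pineal slice, and 1 read pair may have been counted more than once. Asmt, the methyltransferase that makes melatonin from the product of Aanat, had 8.15, 5.90, 4.39, 4.68 and 2.07 CPM, and the other slices ran from 1.59 to 5.32 CPM. Its ranges overlapped, with only 2 of the 5 above all others. The ratio of mean CPM was 1.58.

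The remaining enzymes of the pathway are not particular to the gland. Gch1, which starts the synthesis of the hydroxylase's cofactor, had 10.3 CPM in CRMP1+CRMP2 replicate 2 and 2.53 to 3.33 CPM in the other 4, against 0.711 to 5.88 CPM elsewhere. Ddc, the decarboxylase that makes serotonin, had 6.73 to 8.74 CPM in the 5 slices and 2.47 to 16.2 CPM in the others. Over the whole list of melatonin synthesis, 1 of 10 genes that passed the filter, Aanat, stood above all other slices, and the median log2 ratio was 0.0014 against 0.0091 over all genes.

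Crx, which activates pineal and photoreceptor genes (rn7 chromosome 1, 76540141 to 76545818, minus strand), had 12.9, 4.60, 4.42, 3.95 and 2.51 CPM. In 32 of the other 38 slices no read of Crx was counted, and the highest had 0.267 CPM. Its mean of 5.67 CPM ± 4.10 (SD, n = 5) was 280 times that of the other slices, which held 21 counts in all. Otx2, which acts upstream of Crx and is also made in the choroid plexus and thalamus, had 37.2, 24.5, 28.6, 20.1 and 28.97 CPM, and 4 of these 5 values lay above the 7.54 to 22.3 CPM of the other slices.

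Also above all other slices were 3 further factors of the list: the homeobox genes Bsx and Lhx4 and the proneural Neurod4. Bsx had 2.64 to 6.96 CPM against at most 2.59 CPM, Lhx4 1.86 to 6.60 CPM against at most 1.37 CPM, and Neurod4 6.85 to 23.3 CPM against 0.626 to 3.27 CPM. Bsx was thus separated by a narrow margin. Factors that the thalamus, cortex or other tissue of the slice also makes did not separate. Pax6 had 5.79 to 18.8 CPM against 6.48 to 25.8 CPM, Neurod1 39.4 to 65.9 CPM against 30.6 to 62.4 CPM, and Lhx9 2.08 to 32.6 CPM against 1.05 to 39.5 CPM. Mitf, a factor of pigment cells and the developing gland, lay above all others in 4 of the 5 slices, at 5.62 to 13.7 CPM against 1.33 to 6.63 CPM. In all, 4 of the 12 listed factors that passed the filter separated, and 11 of the 12 passed through the other slices alone.

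Of the phototransduction list, 7 of 14 genes that passed the filter separated, and 5 of these code for the cone forms of their protein. The other slices alone let 7 of the 14 pass, and the rest entered only through the pineal slices, so this share depends on the filter. Over all genes tested, 0.196% separated. Gnat2, the alpha subunit of cone transducin, had 32.8, 21.4, 9.91, 10.9 and 4.85 CPM against 0.0332 to 1.22 CPM in the other slices, 71.2 times their mean. Gnb3 and Gngt2, its beta and gamma partners, had 13.6 to 55.4 CPM against at most 12.0 CPM and 1.42 to 8.76 CPM against at most 1.01 CPM. Pde6c, the cone phosphodiesterase, had 0.838 to 7.87 CPM against at most 0.381 CPM, and Cngb3, a subunit of the cone cation channel, 0.555 to 2.83 CPM against at most 0.432 CPM. The other 2 of the 7 that separated were Sag and Guca1b. Sag, the arrestin first known as S-antigen, had 11.6, 1.38, 1.17, 0.936 and 0.898 CPM against at most 0.337 CPM. Guca1b, an activator of guanylate cyclase, had 10.4 CPM in CRMP1+CRMP2 replicate 2 and 0.658 to 2.46 CPM in the other 4, against at most 0.562 CPM.

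The rod counterparts Gnat1 and Pde6a lay within the range of the other slices. Gnat1, rod transducin, had 1.29 to 2.00 CPM against 0.740 to 2.70 CPM. Pde6a, a subunit of the rod phosphodiesterase, had 0 to 0.277 CPM against at most 0.422 CPM. Opn1sw, the short-wave cone opsin, had 0.139 to 0.362 CPM against at most 0.516 CPM. Gngt1, the rod gamma subunit, was under the filter with 2.63, 0.580, 0.227, 0.347 and 0.0599 CPM, and 4 of the 5 lay above the highest other slice at 0.0804 CPM. Cngb1, a subunit of the rod channel, had 0.868 to 5.18 CPM, with 4 of 5 above the 0.891 CPM reached elsewhere.

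Among genes of photoreceptor structure and trafficking, 6 of 12 that passed the filter separated. Here too the other slices alone let only 7 of the 12 pass. Rbp3, which carries retinoids between cells in the retina (rn7 chromosome 16, 9267538 to 9276006, plus strand), had 57.5, 14.4, 15.05, 8.81 and 7.93 CPM, and the highest other slice had 0.533 CPM. This was 131 times the mean of the other slices. Aipl1, a chaperone of the phosphodiesterase, had 20.2, 6.99, 5.56, 4.23 and 4.61 CPM against at most 1.15 CPM. Tulp1, a Tubby family protein of the photoreceptor, had 1.62 to 12.7 CPM against at most 0.463 CPM, and Prph2, the peripherin of the outer segment's rim, 1.44 to 8.87 CPM against at most 0.264 CPM. Impg1 and Impg2, proteoglycans of the matrix around photoreceptors, had 1.497 to 6.71 CPM and 3.62 to 17.9 CPM, against at most 0.430 and 1.76 CPM. Cacna1f, the calcium channel of photoreceptor synapses, was above all other slices in 4 of 5, at 1.17 to 5.46 CPM against at most 1.36 CPM.

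**Figure D2:**
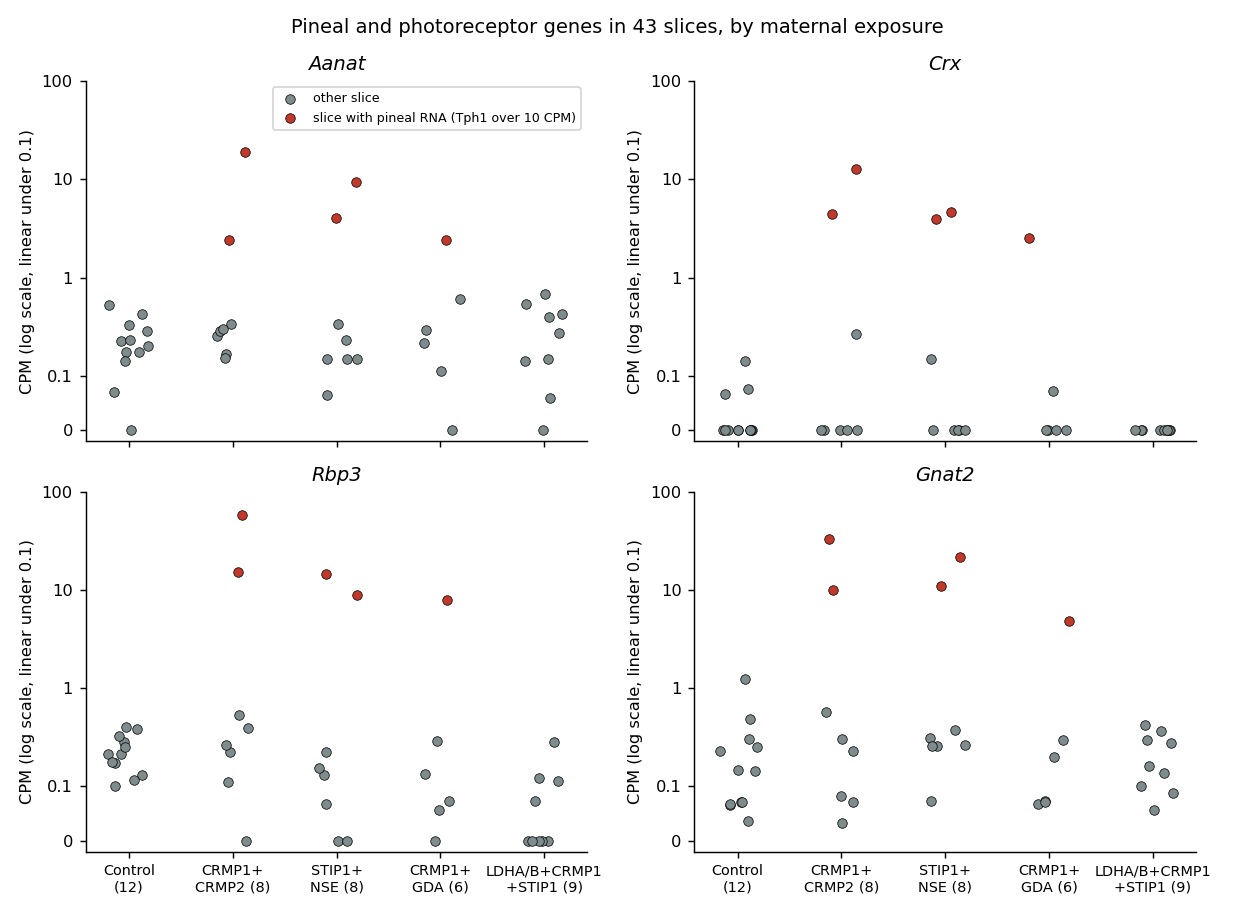
CPM of Aanat, Crx, Rbp3 and Gnat2 in each of the 43 slices by maternal exposure, on an axis that is logarithmic above 0.1 CPM and linear below; red points are the 5 pineal slices and grey points the 38 others. Every red point lies above every grey point of its panel, and the controls and the LDHA/B+CRMP1+STIP1 slices hold no red point.

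Compared per length of exon, as RPKM, the CPM divided by exon length in kilobases, the cone beta subunit Gnb3 had the highest median over the 5 slices of the 25 genes, at 13.5 RPKM. Gnat2 followed at 7.12 RPKM, Crx at 4.92 RPKM, Bsx at 4.09 RPKM, Rbp3 at 3.81 RPKM and Krt15 at 3.77 RPKM. Aanat had a median of 3.07 RPKM. These ranges over the 5 slices overlapped widely, from 8.77 to 35.6 RPKM for Gnb3 and from 3.18 to 21.5 RPKM for Gnat2. In the other slices the medians were 2.78 RPKM for Gnb3 and 0.117 RPKM for Gnat2.

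Genes that respond to the nightly adrenergic drive of the adult gland, or that carry it, did not separate: none of 17 that passed the filter stood above all other slices. All 17 passed through the other slices alone, where the list summed to 612 to 817 CPM. A pineal part of these levels cannot be told apart from the rest of the slice. Adrb1, the beta-1 adrenergic receptor, had 19.3 CPM in CRMP1+CRMP2 replicate 2 and 5.11 to 8.11 CPM in the other 4, against 3.33 to 12.5 CPM. The type-2 deiodinase Dio2 had 10.6 to 15.2 CPM against 8.99 to 22.9 CPM, and the cyclic AMP modulator Crem 10.1 to 11.8 CPM against 7.24 to 12.0 CPM. Drd4, the dopamine D4 receptor, which is strongly rhythmic in the adult pineal gland, was under the filter, with 2.30, 0.942, 0.681, 0.347 and 0.239 CPM. The other slices reached 0.295 CPM, so 4 of the 5 lay above them.

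Outside the lists, Tlx2 and Krt15 had the largest ratios. The homeobox gene Tlx2 (rn7 chromosome 4, 115573799 to 115575642, minus strand) had 4.07, 1.59, 0.605, 1.80 and 1.41 CPM, while 36 of the other 38 slices had no read, and the 6 counts of the remaining slices reached 0.148 CPM. Its ratio of means, 336, rests on those 6 counts. Krt15, a type I keratin, had 10.4, 8.15, 6.24, 2.29 and 4.16 CPM against at most 0.381 CPM. The LIM homeobox gene Isl2 had 0.838 to 6.51 CPM against at most 0.271 CPM, Lrrc38, an auxiliary subunit of a potassium channel, 2.68 to 12.3 CPM against at most 2.67 CPM, and Esm1, a secreted proteoglycan, 2.36 to 5.41 CPM against at most 1.91 CPM. Esm1 was the 1 gene of the 25 with its highest value not in CRMP1+CRMP2 replicate 2 but in CRMP1+CRMP2 replicate 6. Lrit1 and Trpm1, known from photoreceptors and bipolar cells, had means under 1 CPM in the 5 slices and were named after their values were seen. Lrit1 had 0.312 to 1.61 CPM against at most 0.221 CPM, and Trpm1 0.419 to 1.88 CPM against at most 0.379 CPM.

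The 5 slices held the programme in unequal amounts. The summed level of the 25 genes was 364, 139, 115, 98.7 and 75.6 CPM, against 6.43 to 19.5 CPM with a median of 11.6 CPM in the other 38. The order was that of Tph1, from which the slices had been chosen. CRMP1+CRMP2 replicate 2 exceeded the median of the other 4 by a factor that differed between genes, from 1.47 for Esm1 to 11.9 for Guca1b, with a median of 3.16. Aanat was 5.88 times and Crx 3.07 times that median. The ratio of Aanat to Crx in CPM was 1.47, 2.05, 0.547, 1.02 and 0.964.

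Markers of neighbouring tissue give the setting of these values. Of 8 genes that mark retina rather than pineal gland, 5 passed the filter and none separated. Atoh7, a factor needed for retinal ganglion cells, had at most 0.416 CPM in the 5 slices against at most 3.04 CPM in the others. None of the 6 habenular genes separated, and the summed level of the list was 9.87 to 33.1 CPM against 9.19 to 39.4 CPM in the other slices. The thalamus list summed to 194 CPM in CRMP1+CRMP2 replicate 2, under the lowest other slice at 241 CPM, and to 767 to 1184 CPM in the other 4.

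Meninges and blood were high in some of the 5. The 11 genes of meninges and fibroblasts summed to 1424, 409, 624, 1292 and 1342 CPM, and 3 of these lay above the 122 to 1090 CPM of the other slices. The 6 blood genes summed to 2174, 840, 1524, 2095 and 1780 CPM against 353 to 1834 CPM. The 15 choroid plexus genes summed to 3533 CPM in CRMP1+CRMP2 replicate 2, above the 141 to 3086 CPM of all other slices, and to 538 to 1609 CPM in the other 4. No gene of the meningeal, blood or choroid plexus lists was among the 25. The part of these tissues in the values of the pineal slices was not tested.

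**Figure D3:**
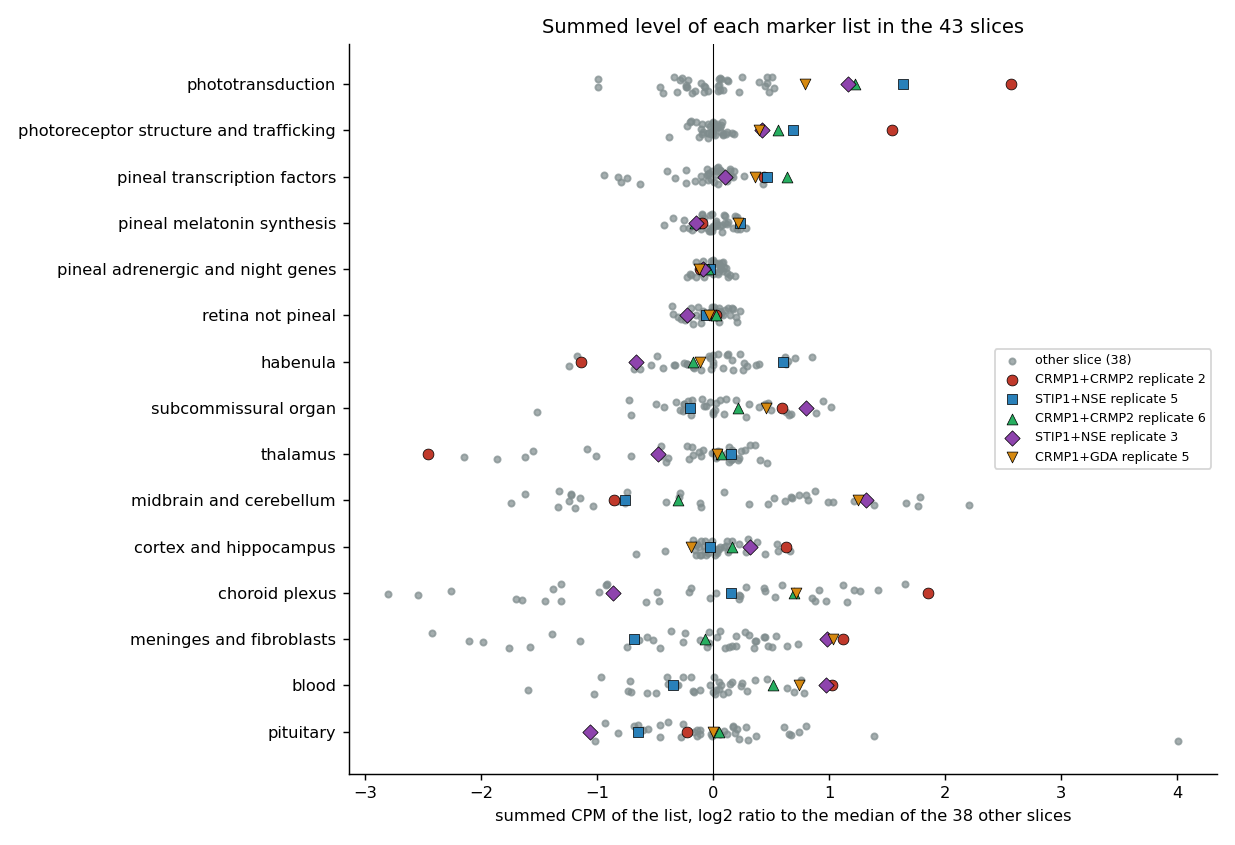
Summed CPM of each of the 15 marker lists in the 43 slices, as the log2 ratio to the median of the 38 other slices, with coloured symbols for the 5 pineal slices and grey points for the others. In the lists of phototransduction and of photoreceptor structure all 5 pineal slices lie to the right of every grey point, and in the lists of habenula, retina and melatonin synthesis they lie among them.

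The pineal slices were unevenly spread over exposure. They made up 5 of 31 exposed slices, 16.1% (exact 95% interval 5.45% to 33.7%), and none of 12 control slices, for which the exact interval reached 26.5%. The difference did not pass a two-sided Fisher's exact test (p = 0.300), and slices of a litter are not independent. Counted by litter it was 5 of 16 against 0 of 4 (two-sided Fisher's exact test, p = 0.530). By pattern, 2 of 8 CRMP1+CRMP2 slices, 2 of 8 STIP1+NSE slices, 1 of 6 CRMP1+GDA slices and 0 of 9 LDHA/B+CRMP1+STIP1 slices were pineal. Any contrast of the first 3 patterns with controls therefore set a group with pineal slices against controls with none.

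This was seen in the comparison of each pattern with the 12 controls, fitted over 12738 genes with sex as a covariate by edgeR's quasi-likelihood test at a false discovery rate (FDR) of 0.1. Tph1 was among the 12738, so totals of genes tested and called in the exposure contrasts can include it. In CRMP1+CRMP2, 136 genes (1.07%) passed, 56 higher (0.44%) and 80 lower. Among the 56 were 6 of the 25 pineal genes: Crx, Sag, Tlx2, Aipl1, Neurod4 and Lrit1. These calls depended on the fit. With the counts of littermates added up (edgeR) or the dam as a random effect (limma), 0 of all 12738 genes were called, the 25 included. The filterByExpr filter left 8 of the 25, and 0 of these were among its 86 calls over 12934 genes. Leaving out 1 library gave 0 to 16 of the 25 among 0 to 906 calls in all. DESeq2 called 810 genes and gave no adjusted p for any of the 25. Crx was higher by 6.41 on the log2 scale (SE 1.12, adjusted p = 0.051, edgeR), Sag by 5.25 (SE 1.04, adjusted p = 0.063, edgeR) and Aipl1 by 2.99 (SE 0.78, adjusted p = 0.099, edgeR). For Tlx2 and Lrit1 the controls held 2 and 3 counts in all, so no fitted fold is given. Without the 2 pineal slices the estimate for Crx was 0.85 (SE 1.30), for Sag 1.34 (SE 1.12) and for Aipl1 0.40 (SE 0.48), with adjusted p of 0.77, 0.56 and 0.70 in edgeR.

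At an unadjusted p under 0.05, 24 of the 25 pineal genes were higher in CRMP1+CRMP2 than in controls, beside 9.59% of all genes. Without the 2 pineal slices 0 of 25 were higher and 1 was lower, beside 6.3% of all genes higher. The median log2 fold change of the 25 went from 2.90 to 0.10, while that of all genes was 0.01 and 0.00. Leaving out Tlx2 and Lrit1 gave 2.72 in place of 2.90. The 25 genes were chosen on slices that include these 2, so the first values are not independent of the choice. CRMP1+CRMP2 replicate 2 decided much of the estimate: without it alone the median was 1.63, and 12 of the 25 had an unadjusted p under 0.05.

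The estimates of the other genes called in CRMP1+CRMP2 changed little when the pineal slices were taken out. Of the 136, 130 were not among the 25, and all 130 kept their direction with an unadjusted p under 0.05, at a median of 0.963 times the earlier estimate. These 130 were called in a fit that shares 18 of its 20 libraries with the smaller one. The 6 pineal genes had been chosen for high values in the slices removed, so the contrast between the sets was largely set in advance. None of the 136 had an adjusted p under 0.1 without the slices, where edgeR called 0 of 12738 genes and 1786 had an unadjusted p under 0.05. For Polq, the DNA polymerase theta of end-joining repair, the log2 difference was 0.92 (SE 0.15, adjusted p = 0.036, edgeR) with all slices and 0.85 (SE 0.18, adjusted p = 0.30, edgeR) without. For Fam241b it was -0.36 (SE 0.06, adjusted p = 0.036, edgeR) and -0.36 (SE 0.07, adjusted p = 0.30, edgeR).

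The count of calls was unsteady to every library, pineal or not. Leaving out any 1 of the 20 libraries moved it by over 1.5 times. The counts without CRMP1+CRMP2 replicates 1 to 8 in turn were 227, 0, 14, 3, 67, 1, 802 and 906. The counts without control replicates 1 to 12 in turn were 18, 47, 3, 8, 866, 61, 38, 11, 70, 4, 11 and 9. The number of pineal genes called moved as well. It was 0 without control replicate 3 and 1 without control replicate 4, 10 without control replicate 5, and 13 and 16 without CRMP1+CRMP2 replicates 7 and 8. The median log2 fold change of the 25 moved less, between 2.71 and 3.21 when any of the 18 libraries other than the pineal slices was left out, and 21 to 25 of the 25 had an unadjusted p under 0.05. With the pineal score of each slice, a mean of log2 levels of listed pineal genes, as a covariate, 0 genes were called and the median of the 25 was 0.27. Of the 25, 18 belong to the lists averaged in the score, so this lower median follows from the adjustment.

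**Figure D4:**
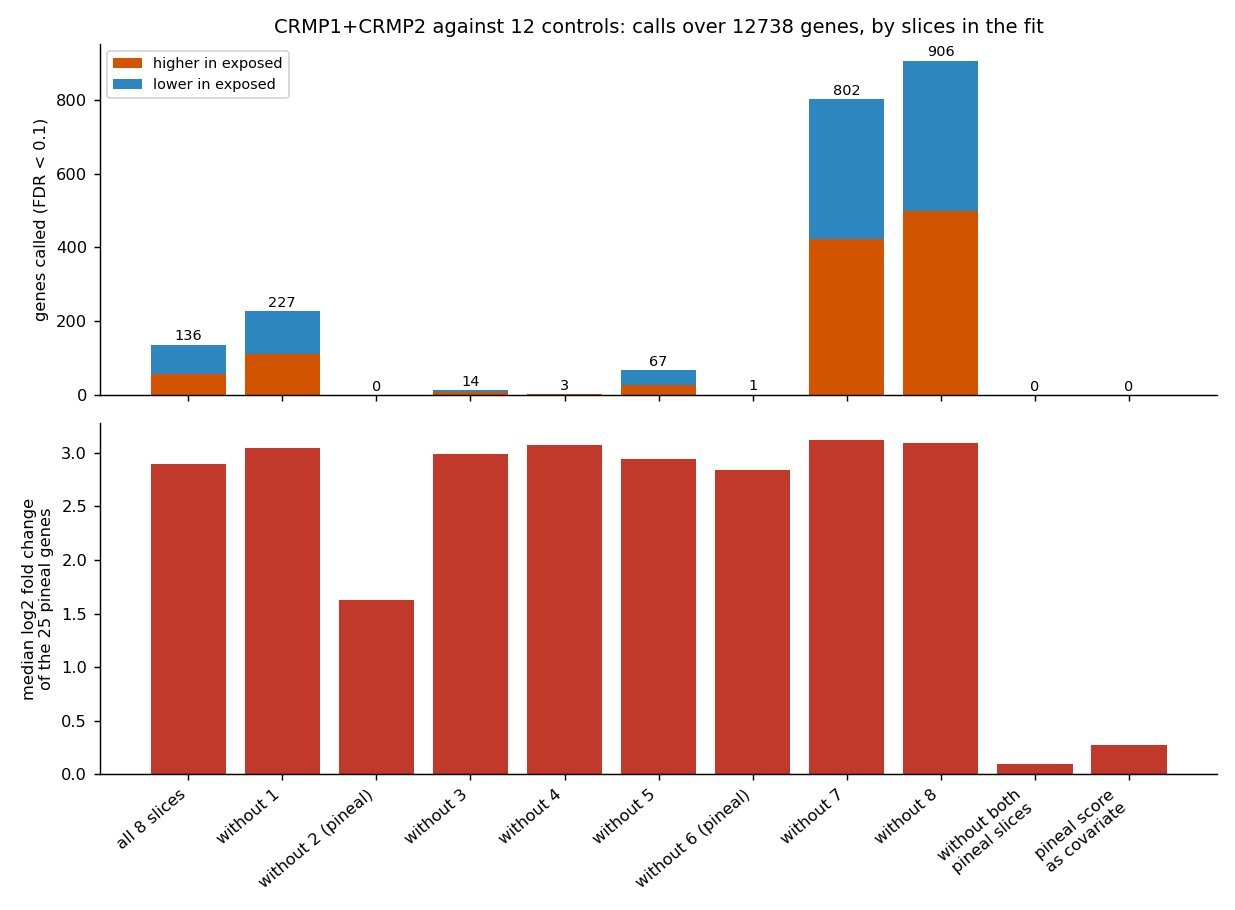
Above, the number of genes called at FDR under 0.1 in CRMP1+CRMP2 against 12 controls, higher and lower, with all 8 slices, without each slice in turn, without both pineal slices and with a pineal score as a covariate; below, the median log2 fold change of the 25 pineal genes in the same fits. The count runs from 0 to 906 as single slices are left out, whereas the median lies near 3 in the fits other than those without replicate 2 (1.63), without both pineal slices (0.10) and with the score (0.27).

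**Figure D5:**
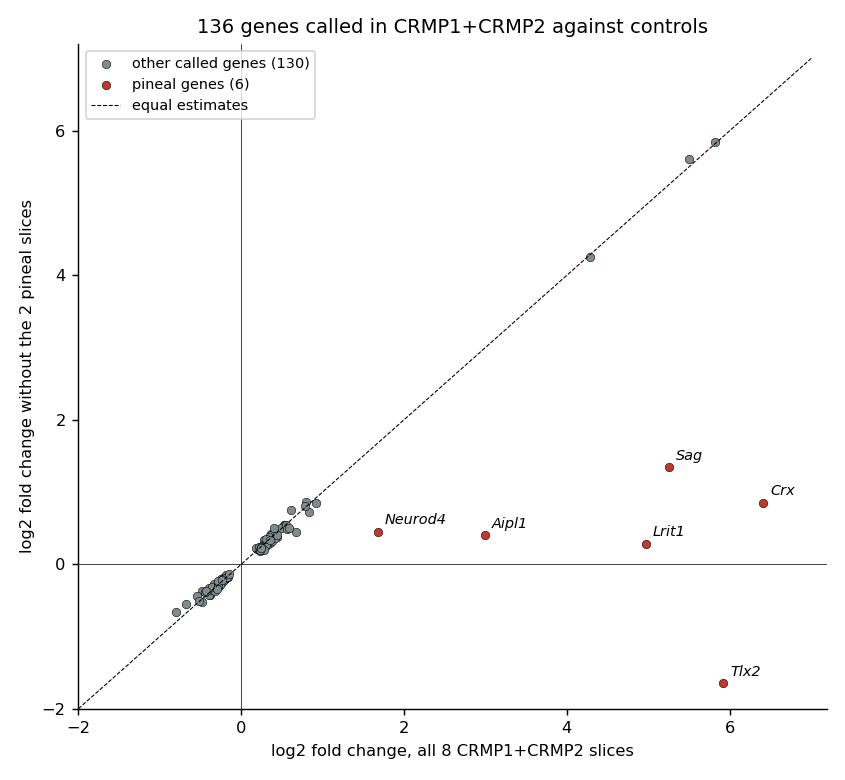
Log2 fold change of the 136 genes called in CRMP1+CRMP2 against controls, with all 8 exposed slices (x axis) and without the 2 pineal slices (y axis), with 6 pineal genes in red and 130 others in grey and the line of equal estimates dashed. The grey points lie on or near the line and the red points far under it; the estimates for Tlx2 and Lrit1 rest on 2 and 3 control counts.

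In STIP1+NSE, which also held 2 pineal slices, edgeR and DESeq2 called 0 genes, with 350 genes at an unadjusted p under 0.05 in edgeR. Of the 25 pineal genes, 20 were higher than in controls at an unadjusted p under 0.05, beside 1.61% of all genes, and without the slices it was 0 of 25 beside 1.31%. The median log2 fold change of the 25 was 2.13 with the slices and 0.15 without. In CRMP1+GDA, with 1 pineal slice of 6, 16 of the 25 were higher at that threshold beside 3.32% of all genes, and 1 of 25 without the slice beside 2.1%. The median went from 1.35 to 0.12. The 25 were chosen for higher values in these pineal slices than in the controls. A higher level with the slices and a fall without them therefore follow largely from that choice. The same limit holds for the counts of the 25 in every later fit that includes pineal slices.

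The 1 gene called in CRMP1+GDA was Hoxb8 (0.00785% of genes), a homeobox gene of the hindbrain and spinal cord. It had 12.5 CPM in replicate 4, 5.81 CPM in replicate 5, 0.965 CPM in replicate 2 and 0.0562 CPM or less in the other 3, against 2 counts over all controls. Its adjusted p was 0.059 with all slices and 0.52 without replicate 5, the pineal slice (edgeR). Replicate 4, which is not a pineal slice, had the highest value, and the unadjusted p without replicate 5 was 0.00013 (edgeR). Hoxb8 was not particular to CRMP1+GDA. LDHA/B+CRMP1+STIP1 replicates 5, 4 and 6 had 9.67, 7.11 and 6.95 CPM of it. Against controls that pattern gave an unadjusted p of 1.1e-05 and an adjusted p of 0.14 (edgeR). CRMP1+CRMP2 replicate 5 had 1.51 CPM and STIP1+NSE replicate 3 had 0.936 CPM. In LDHA/B+CRMP1+STIP1, which held no pineal slice, 12 of the 25 had an estimate above 0 and the median was -0.01. None of the 25 was higher at an unadjusted p under 0.05 there, beside 3.06% of all genes. Over all 31 exposed slices against controls, edgeR and DESeq2 called 0 genes, with 806 at an unadjusted p under 0.05 in edgeR. Of the 25, 22 were higher at that threshold beside 3.85% of all genes, and 0 of 25 without the 5 slices beside 2.98%. The 4 patterns shared the same controls, so these values are not independent of each other.

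Pups of a litter share a dam, and the counts of pineal genes at that threshold were lower in most fits that took the litter into account. With the dam as a random effect (limma), 11 of the 25 were higher in CRMP1+CRMP2 beside 4.57% of all genes, 1 in STIP1+NSE beside 0.259%, 3 in CRMP1+GDA beside 0.385% and 0 over all exposed slices beside 0.683%. With the counts of littermates added up (edgeR, no sex term) they numbered 25 beside 3.32%, 19 beside 0.722%, 10 beside 0.926% and 14 beside 1.24%.

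The design nearest to the study's own, with all 24 controls and 1 surrogate variable, called 1669 genes in CRMP1+CRMP2, and 22 of the 23 pineal genes tested were among those higher, beside 5.63% of all genes. This design had no sex term. It took in the control and LDHA/B+CRMP1+STIP1 slices of the other titles where they belonged to the groups compared. Without the pineal slices it called 516, with 1.94% of all genes higher. Of 1642 called genes that were not among the 25 and were tested in both fits, 1641 kept their direction and 1402 had an unadjusted p under 0.05. The median was 0.988 times the earlier estimate, and the fits share most of their libraries. In STIP1+NSE this design called 7 genes, all higher (0.0553% of genes) and 6 of them pineal genes of the 25, and 0 without the slices. Over all exposed slices, those of the other titles included, it called 12 genes, 11 of them higher (0.0858%) and 5 of them of the 25, and 0 without. This design filters genes anew, and without the slices only 6 of the 25 were tested in CRMP1+CRMP2, 6 in STIP1+NSE and 9 over all exposed slices. None of these was called, while the rest of the 25 could not have been.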

How the data were processed

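RNA of 71 coronal slices was sequenced from poly-A libraries in read pairs. For alignment the authors used STAR 2.5.4b on build rn7, and they counted them per gene with featureCounts, and the deposited table holds unnormalized counts for 17494 genes with each gene's exon length and position (the other column unit, as deposited, was bases). Of low counts from 1 to 9, 74.2% were even, and the counting options were not given in the sources used here, so each printed count may stand for fewer fragments. CPM was the count over the column total, and RPKM also divided by exon length. The 28 columns of the other titles were a background to the slice grouping. They were also fitted as samples in the design with all 24 controls and a surrogate variable. No sample column was left unused.

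Members and gene lists were chosen with earlier results of these data known. The pineal slices were described without a test. Genes over 1 CPM in at least 2 of 43 slices were kept, and list medians of log2 ratios used a pseudocount of 0.1 CPM. The text names list members, the 15 largest ratios with a mean of at least 1 CPM among separating genes, the 10 largest drops (there were none), the 3 smallest p per contrast and the 5 genes most like Aanat and Crx. Exposure contrasts used edgeR 4.0.16 (quasi-likelihood, TMM, sex as covariate, Benjamini-Hochberg FDR under 0.1) in R 4.3.3, with limma 3.58.1, DESeq2 1.42.0 and sva 3.50.0 as alternatives, and Python 3.11.15 with scipy 1.17.1. The fits on counts summed per litter and the surrogate design had no sex term. Group labels named no separate cultures, and pups of a litter share a dam, so p-values measure the spread between slices. Tested on simulated counts with 200 of 12738 genes changed by 1 log2 unit, the fit recovered 199 with 21 false calls for 8 against 12 slices and 198 with 16 false calls for 6 against 12. The simulation used a dispersion of 0.02 for every gene, with no differences between litters or in tissue. It does not show how the fit behaves on these slices. Intervals and floors cover counting error only. Alternatives left out each exposed library in turn in the 4 patterns and each control in CRMP1+CRMP2 and CRMP1+GDA, changed filter, scaling, covariates or tool, summed litters or took the litter as a random effect. Promoters came from RefSeq on GRCr8, with 19 of 25 genes matched by symbol.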

Additional observations from a re-analysis of the deposited data

Results flagged for a closer look

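CRMP1+CRMP2 replicate 2 lay far from the other pineal slices for 13 of the 25 genes that separated. The gap to the next slice, as a share of the range over the 5, passed the Dixon value of 0.71 for Crx (0.798), Bsx (0.780), Neurod4 (0.817), Sag (0.955), Cngb3 (0.770), Guca1b (0.816), Aipl1 (0.827), Rbp3 (0.856), Prph2 (0.888), Impg1 (0.721), Impg2 (0.739), Isl2 (0.868) and Lrrc38 (0.820). In each of these CRMP1+CRMP2 replicate 2 had the highest CPM. Chance alone passes about 1 in 20 such groups, and genes of 1 library are not independent.

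Within exposure patterns 1 pineal slice each was far from its nearest neighbour. For Aanat the share was 0.879 in CRMP1+CRMP2 (8 slices, Dixon value 0.526), 0.577 in STIP1+NSE (8 slices) and 0.753 in CRMP1+GDA (6 slices, Dixon value 0.625). For Crx it was 0.656 in CRMP1+CRMP2 and 0.972 in CRMP1+GDA. In CRMP1+CRMP2 and STIP1+NSE the neighbour was the other pineal slice, so there the gap is one between pineal slices. The slices had been picked for pineal RNA, so these distances describe the choice.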

How the results depend on the processing

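The 25 separating genes numbered 24 with TMM-scaled CPM, 25 with median-ratio size factors, 27 of 17493 without a filter, 28 within the patterns that hold a pineal slice and 25 to 28 without each pineal slice in turn. They numbered 7 when over 1 CPM was asked of at least 2 of the other slices, and 0 when Tph1 over 1 CPM cut the groups (9 slices). Leaving out slices cannot remove any of the 25, so the counts without slices could only stay or rise. Log2 ratios of the 25 genes kept their sign in all 225 alternatives and moved by over 1 SD in 2. The 25 were chosen for higher values in the pineal slices, so these signs were largely set by the choice. The Fisher test by exposure did not pass by slice or by litter.

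In CRMP1+CRMP2, the 136 calls became 0 without the pineal slices, with the pineal score, with counts summed per litter and with the litter as a random effect, 86 with filterByExpr, 63 without a filter, 810 in DESeq2, 1669 with 24 controls and a surrogate variable and 516 in that design without the pineal slices. Leaving out 1 library, control or exposed, gave 0 to 906 calls there and 0 to 9 in CRMP1+GDA. Leaving out 1 exposed library gave 0 to 1 in STIP1+NSE and 0 to 1 in LDHA/B+CRMP1+STIP1, where no control was left out. The single call in CRMP1+GDA became 6 without a covariate and 10 in DESeq2, and 0 without the pineal slice, with the score, with filterByExpr, without a filter, with litters summed or random and in the surrogate design without that slice. The 0 calls became 7 with 24 controls and a surrogate variable in STIP1+NSE, 2 with the score and 3 with the surrogate design in LDHA/B+CRMP1+STIP1, and 1 without a filter and 12 with the surrogate design over all exposed slices. The causes were not tested. Halving the counts gave 138 calls in CRMP1+CRMP2.

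No paired analysis was possible because the exposure groups share no litter and no replicate number in the labels. The dams pair each pineal slice with 1 littermate, but those groups were cut on measured RNA and were described without a test. Single libraries decide the counts of calls, only 5 slices carry the programme, and genes near 1 CPM rest on few reads, so differences between the 5 slices in such genes are imprecise.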

Other observations

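The 5 genes whose CPM was most like the summed CPM of Aanat and Crx over the 43 slices were Tulp1, Aipl1, Pde6c, Gnat2 and Rbp3. Pearson's r was 0.998 for Tulp1, 0.990 for Aipl1, 0.985 for Pde6c, 0.984 for Gnat2 and 0.981 for Rbp3, while Spearman's rho was 0.326, 0.523, 0.280, 0.252 and 0.415. Without CRMP1+CRMP2 replicate 2, r over 42 slices was 0.995 for Tulp1, 0.957 for Aipl1, 0.947 for Pde6c, 0.992 for Gnat2 and 0.940 for Rbp3. The r rests on the distance between the 5 pineal slices and the rest, and the 43 points share no library.

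There were 4 slices with Tph1 between 1 and 10 CPM: STIP1+NSE replicate 8 at 1.67 CPM, Control replicate 10 at 1.65 CPM, LDHA/B+CRMP1+STIP1 replicate 9 at 1.44 CPM and CRMP1+CRMP2 replicate 7 at 1.03 CPM. Control replicate 10 had 0.529 CPM of Aanat, 0.397 CPM of Rbp3 and 1.22 CPM of Gnat2, the highest Gnat2 of the 38 other slices. In STIP1+NSE replicate 8 Aanat and Crx were both at 0.148 CPM and Rbp3 was at 0. The summed level of the 25 genes in these 4 slices was 11.3, 17.96, 19.4 and 12.1 CPM, within the 6.43 to 19.5 CPM of the 34 slices under 1 CPM of Tph1.

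The 3 largest positive estimates among the 130 other calls in CRMP1+CRMP2 were for genes outside the pineal set, named after their values were seen. Hoxa5, Hoxb5 and Evx1, all homeobox genes of the posterior neural tube, had log2 fold changes of 5.82, 5.50 and 4.28 with all slices and 5.84, 5.60 and 4.25 without the pineal slices. The SE with all slices were 1.45, 1.43 and 1.01, with adjusted p of 0.094, 0.099 and 0.081 (edgeR). Without the pineal slices the adjusted p were 0.30, 0.30 and 0.31 (edgeR). Their levels in single slices are not given here, so a fold carried by 1 slice cannot be told apart.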
